A study of Mus musculus with 6 samples.

Results

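The genes described here encode parts of the phagocyte NADPH oxidase and enzymes that clear the oxidants it makes, and they were taken by name as 9 rows of a table of 24047 gene rows. Of these, 5 encode oxidase parts (Cybb, Cyba, Ncf1, Ncf4 and Rac2) and 4 encode antioxidant enzymes (Sod2, Cat, Gpx1 and Txnrd1), and all 9 passed the filter on low counts that 10626 genes passed. They were measured by bulk RNA sequencing in 3 kidney libraries (replicates 7, 8 and 22, labelled double_pos) and 3 libraries from spleen and bone marrow together (replicates 2, 24 and 26, labelled double), the markers behind these names not being given. Every library came from wild-type mice of strain C5/Bl6, aged 8 to 10 weeks, in which nephrotoxic nephritis had been induced, and tissue was taken on day 13. The disease is thus shared by both groups, no healthy animal was sequenced, and 10 mice served the whole series. Renal cells were enriched for monocytes with a commercial kit before sorting, and nothing is said of how spleen and marrow cells were isolated, so tissue and handling cannot be told apart. Nothing says which mice, or how many, stand behind a library, and p-values therefore cover only the spread among these 6 libraries, which may be technical.

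The oxidase moves electrons from NADPH across a membrane to oxygen and so makes superoxide, which phagocytes use to kill microbes. Its core in the membrane is a pair of proteins, gp91phox (Cybb) and p22phox (Cyba), and it is switched on when cytosolic proteins, among them p47phox (Ncf1) and p40phox (Ncf4), and a Rac GTPase, mainly Rac2 in blood cells, join that core. Superoxide dismutases turn superoxide into hydrogen peroxide, which catalase (Cat), glutathione peroxidases (Gpx1 among them) and the thioredoxin system, recharged by thioredoxin reductase (Txnrd1), then remove. The comparison asks how these transcripts in monocyte-enriched kidney cells of nephritic mice differ from those in cells of the organs that make and store monocytes.

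The stretches just upstream of the genes are shown for both members that passed the test (Ncf1 and Sod2), for the catalytic core gene Cybb, and for the start of Txnrd1 that holds a match to the NRF2 motif. RefSeq windows of 300 bases, from 250 before to 50 after an annotated start, were matched by symbol for 7 of the 9 members, and the build is GRCm38.p6, whereas the submitters' processing notes name mm9. Searches on both strands covered the PU.1 core GAGGAA (in 28.3% of all 32851 promoter windows), Sp1 GGGCGG (35.7%), the interferon-stimulated response element, GAAA repeated after any 2 bases (3.44%), the NRF2 core TGACNNNGC (12.4%), TATAAA (13.6%) and the NF-kB consensus (8.46%). Capitals mark the matches, which nowhere overlapped each other in these 4 windows.
Cybb, chrX:9469275-9469574, minus strand: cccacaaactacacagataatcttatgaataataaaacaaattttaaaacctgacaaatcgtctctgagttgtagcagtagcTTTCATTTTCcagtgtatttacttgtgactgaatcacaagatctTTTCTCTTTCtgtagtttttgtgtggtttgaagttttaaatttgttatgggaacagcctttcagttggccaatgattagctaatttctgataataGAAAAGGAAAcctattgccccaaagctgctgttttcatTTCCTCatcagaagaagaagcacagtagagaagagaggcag
Ncf1, chr5:134229576-134229875, minus strand: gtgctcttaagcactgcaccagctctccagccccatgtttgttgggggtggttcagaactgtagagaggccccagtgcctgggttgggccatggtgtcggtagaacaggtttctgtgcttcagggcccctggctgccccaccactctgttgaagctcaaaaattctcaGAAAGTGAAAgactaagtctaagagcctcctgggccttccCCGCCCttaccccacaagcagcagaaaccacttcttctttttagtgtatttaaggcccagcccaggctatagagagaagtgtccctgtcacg
Sod2, chr17:13007589-13007888, plus strand: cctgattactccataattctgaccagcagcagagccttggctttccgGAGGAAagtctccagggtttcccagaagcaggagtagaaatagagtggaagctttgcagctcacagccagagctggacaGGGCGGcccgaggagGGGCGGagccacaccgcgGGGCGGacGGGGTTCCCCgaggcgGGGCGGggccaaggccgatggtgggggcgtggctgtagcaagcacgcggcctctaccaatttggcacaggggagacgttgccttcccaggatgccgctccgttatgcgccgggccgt
Txnrd1, chr10:82858956-82859255, plus strand: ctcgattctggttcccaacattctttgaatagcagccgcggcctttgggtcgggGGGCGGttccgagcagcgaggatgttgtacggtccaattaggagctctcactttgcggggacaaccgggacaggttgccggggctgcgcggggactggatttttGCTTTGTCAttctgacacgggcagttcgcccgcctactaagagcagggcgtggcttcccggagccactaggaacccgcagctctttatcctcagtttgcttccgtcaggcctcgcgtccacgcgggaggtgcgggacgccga
Counting from 0 at the start, Cybb held 3 matches to the interferon element, at -168 to -159, -124 to -115 and -29 to -20, and a PU.1 core at 9 to 14. In Ncf1 the interferon element lay at -82 to -73, beside an Sp1 match at -42 to -37. The Sod2 window was the richest in Sp1 letters, with 4 matches between -124 and -62, besides an NF-kB match at -83 to -74 and a PU.1 core at -203 to -198, and its GC content was 64.3% against 35.3% for Cybb. The NRF2 letters in Txnrd1 lay at -92 to -84, after an Sp1 match at -196 to -191, and the other 2 listed starts of that gene held none. These matches are letters in a window and no binding was measured.

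Of the 9 genes, 2 rose in kidney and 7 did not pass the test. Sod2, the mitochondrial dismutase, was 2.26-fold higher and Ncf1, the organiser of oxidase assembly, 1.57-fold higher in kidney. Over all genes tested with edgeR, 7.83% were called higher and 5.9% lower, 13.7% in all, so 2 calls among 9 genes are no more than a description. At an unadjusted p under 0.05, 3 members were higher (Ncf1, Sod2 and Txnrd1) and 3 lower (Ncf4, Rac2 and Gpx1), where 15.4% and 12.5% of all tested genes were. DESeq2 called 2 members lower (8.25% of the genes it tested) and limma-voom 3 (7.89%). Those same 6 had library values that did not overlap between the groups, 3 with kidney above (19.2% of all tested genes) and 3 with kidney below (18.8%, and 37.9% in either direction). The median log2 fold change was 0.27 over the 9 members and 0.05 over all genes tested.

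**Figure D1:**
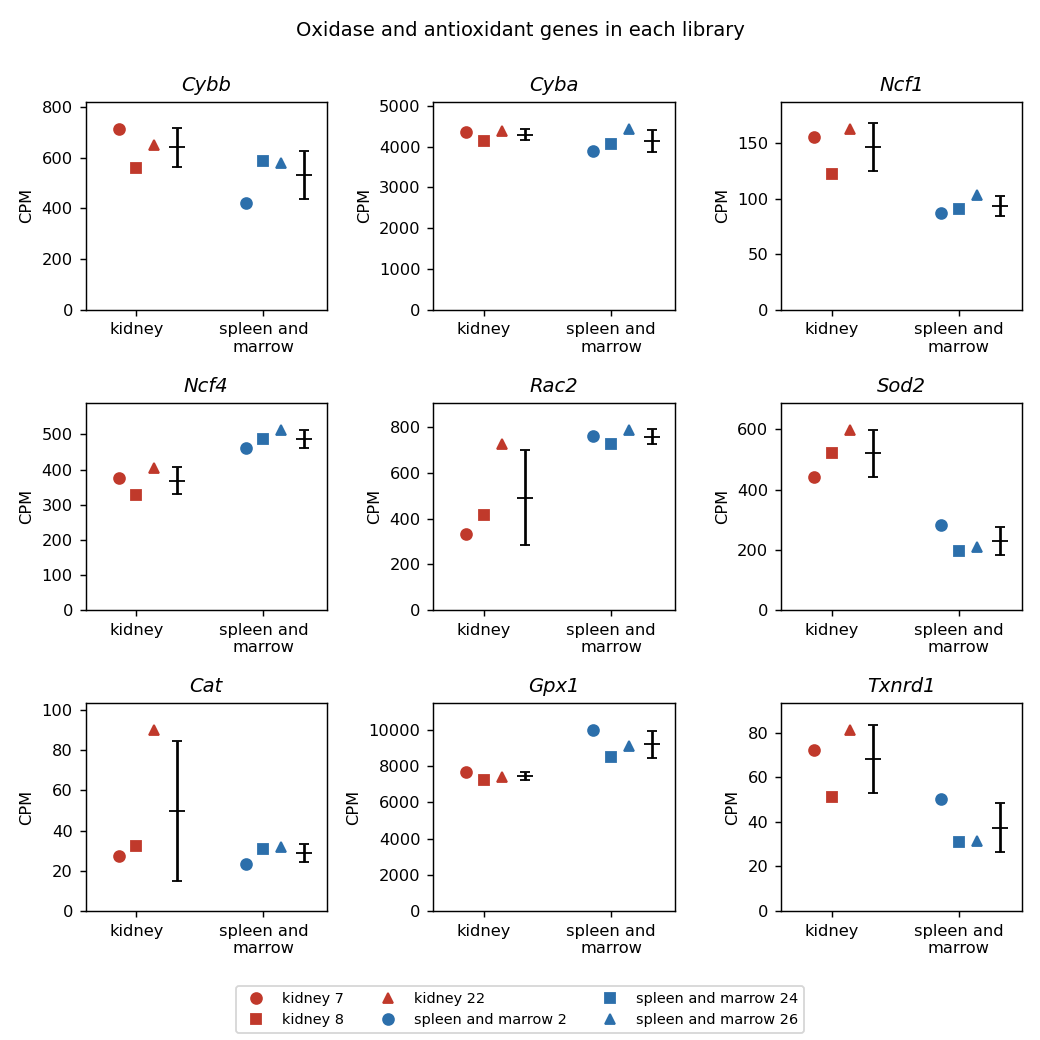
Counts scaled to library size (CPM, y axes from 0) of each of the 9 genes in the 3 kidney libraries (red) and the 3 spleen and marrow libraries (blue), 1 symbol a library, with bars for mean and SD. Sod2, Ncf1 and Txnrd1 lie wholly higher in kidney, and Ncf4, Gpx1 and Rac2 wholly lower, Rac2 by the narrowest gap (724 against 725 CPM).

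The membrane core differed little. Cybb, which encodes the electron-carrying subunit, was measured at 715, 562 and 650 CPM (counts scaled to the size of each library) in kidney, in the order of replicates 7, 8 and 22, and at 422, 589 and 582 CPM in the other group, in the order of replicates 2, 24 and 26. That order is kept below. The groups overlapped, with the lowest value in spleen and marrow replicate 2. The log2 fold change was 0.27 ± 0.17 (SE, n = 3 each, edgeR adjusted p = 0.342), and its 95% interval ran from a fold of 0.921 to 1.59. Cyba, which encodes the stabilising partner, stood at 4355, 4137 and 4382 CPM in kidney and 3895, 4077 and 4438 CPM in spleen and marrow. Its 6 values were interleaved, and the interval of its fold change, 0.876 to 1.23, was on the log2 scale the narrowest among the oxidase members (log2 fold change 0.05 ± 0.11, edgeR adjusted p = 0.79). These are bulk samples, so fewer cells that make a transcript and less of it in each cell cannot be told apart.

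Of the genes for cytosolic parts, Ncf1 rose and Ncf4 did not pass the test. Ncf1 stood at 155, 122 and 163 CPM in kidney and 86.7, 90.2 and 104 CPM in spleen and marrow, so that its lowest kidney library lay above its highest spleen and marrow library. It rose by a log2 fold change of 0.65 ± 0.17 (SE, n = 3 each, edgeR adjusted p = 0.0401). The call sat near the threshold: adjusted p was 0.08 when kidney replicate 7 was left out, and 0.16, 0.173 and 0.126 when spleen and marrow replicate 2, 24 or 26 was. Ncf4, which encodes the subunit that binds a phagosome lipid, stood at 375, 327 and 405 CPM in kidney and 462, 486 and 514 CPM in spleen and marrow. All 3 kidney values were below the others, by a log2 fold change of -0.40 ± 0.13, without a call in edgeR (adjusted p = 0.0846, 0.0314 without kidney replicate 22, and 0.0168 with DESeq2).

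Rac2 had the widest spread of the oxidase genes within kidney. Its values were 335, 415 and 724 CPM in kidney replicates 7, 8 and 22 against 760, 725 and 788 CPM in spleen and marrow. Replicate 22 thus stood at the level of spleen and marrow, and replicates 7 and 8 far below it. With all libraries the log2 fold change was -0.63 ± 0.27 (SE, n = 3 each, edgeR adjusted p = 0.171). Without kidney replicate 22 it was -1.04 (adjusted p = 0.00355), and limma-voom called it with all libraries (adjusted p = 0.0497). Neutrophil and granule precursor markers, 11 genes of which all were detected in every library, had summed values of 1364, 4642 and 45921 CPM in kidney and of between 25201 and 32122 CPM in spleen and marrow. Rac2 and that sum thus rank the kidney libraries alike, and the part of those cells in the Rac2 values was not tested. S100a8 and S100a9 were the largest parts of the sum in every library, at 16137 and 13363 CPM in kidney replicate 22. Of the 11 genes only Mmp8 ranked the kidney libraries otherwise, at 155, 79.5 and 139 CPM. Mpo and Elane stood at 37.3 and 245 CPM in kidney replicate 22, against 221 to 357 and 1078 to 1727 CPM in spleen and marrow. Rac1, the widely expressed relative, was even within kidney at 542, 603 and 554 CPM, all below the 714, 677 and 751 CPM of spleen and marrow (log2 fold change -0.33 ± 0.12, edgeR adjusted p = 0.103, and 0.02 with DESeq2).

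**Figure D2:**
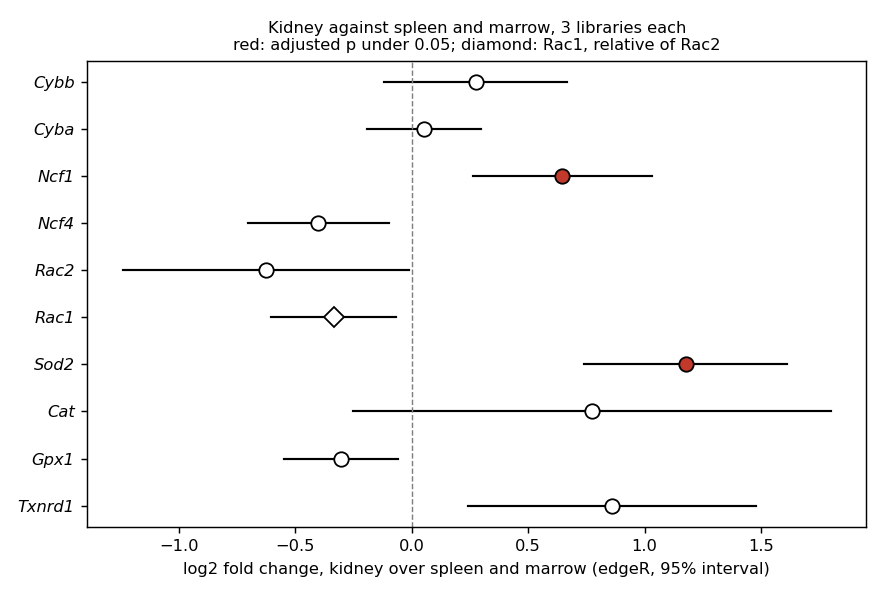
Log2 fold change of kidney over spleen and marrow (x axis, edgeR, 95% interval as a line) for the 9 genes (circles) and for Rac1 (diamond), 3 libraries a group. Red marks an adjusted p under 0.05, reached by Sod2 (1.18) and Ncf1 (0.65), and the interval of Cat is the widest.

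Among the antioxidant enzymes, Sod2 showed the clearest difference. It stood at 443, 521 and 599 CPM in kidney and 284, 195 and 211 CPM in spleen and marrow, and no value of one group came near the other. It rose by a log2 fold change of 1.18 ± 0.19 (SE, n = 3 each, edgeR adjusted p = 0.00699). The call was lost without spleen and marrow replicate 26 (adjusted p = 0.0573, log2 fold change 1.10) and held in the other 16 of 17 alternatives. Txnrd1 stood at 72.1, 51.2 and 81.0 CPM in kidney and 50.1, 30.8 and 31.3 CPM in spleen and marrow. The groups were separated only by the small gap between kidney replicate 8 and spleen and marrow replicate 2, and the log2 fold change of 0.86 ± 0.27 missed the edgeR threshold (adjusted p = 0.0731) but passed with DESeq2 (adjusted p = 0.038). The gene span of Txnrd1 holds Eid3, which had 24 counts over the 6 libraries against 2242 for Txnrd1. Long non-coding RNA genes without a count row also overlap Txnrd1 (Gm38560), Ncf1 (LOC115490142) and Cybb (Gm33784). The part of their reads in the counts of these members was not tested.

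Gpx1, a selenium-containing peroxidase that uses glutathione, was among the most abundant transcripts of the set and slightly lower in kidney. It stood at 7693, 7238 and 7427 CPM in kidney and 9974, 8501 and 9126 CPM in spleen and marrow. The kidney values lay close together and all below, with a log2 fold change of -0.30 ± 0.11 (SE, n = 3 each, edgeR adjusted p = 0.103, DESeq2 adjusted p = 0.0318). Cat, the peroxisomal catalase, was at 27.3, 32.5 and 89.9 CPM in kidney and at 23.5, 30.9 and 31.9 CPM in spleen and marrow. A single library, kidney replicate 22, carried the difference: the log2 fold change was 0.78 ± 0.44 with it (edgeR adjusted p = 0.302) and 0.03 without it. Tubule markers, a list of 12 genes that includes Gpx3, had sums of 977, 405 and 2587 CPM in kidney. They were highest like Cat in replicate 22 but, unlike Cat, lower in replicate 8 than in replicate 7. The sums of neutrophil and granule precursor markers (1364, 4642 and 45921 CPM) ranked the kidney libraries as Cat did. In spleen and marrow the tubule markers summed to 23.9 to 24.1 CPM, or 0.345 to 0.821 CPM without Gpx3. Umod, Lrp2, Slc12a1, Cdh16 and Aqp2 were at 0 in each spleen and marrow library. Erythroid markers, which include genes of another catalase-rich cell, summed to 2.25 to 10.2 CPM in the 6 libraries, with Hba-a1, Hba-a2, Hbb-b1, Hbb-b2, Hbb-bt and Hbb-bs listed at 0. The part of tubule or granulocyte RNA in the Cat values was not tested.

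**Figure D3:**
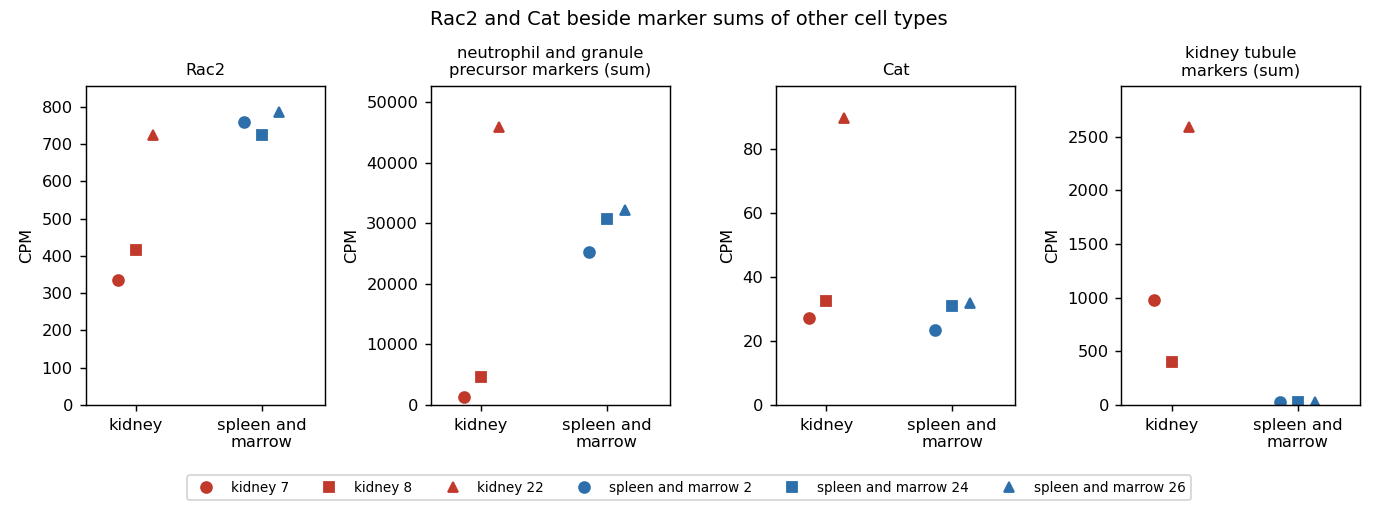
Rac2 and Cat (CPM) beside the summed CPM of 11 neutrophil and granule precursor markers and of 12 kidney tubule markers, 1 symbol a library, kidney in red and spleen and marrow in blue. Kidney replicate 22 (triangle) is the highest kidney library in all 4 panels, at 724 CPM for Rac2 and 89.9 CPM for Cat.

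Levels were compared between genes only per transcript length, on the deposited FPKM scale. In kidney the order was Cyba (3809 ± 673 FPKM, mean ± SD, n = 3), Gpx1 (3119 ± 622), Ncf4 (129 ± 14.5), Rac2 (68.3 ± 14.7), Sod2 (59.8 ± 6.46), Cybb (49.0 ± 10.1), Ncf1 (21.4 ± 2.82), Txnrd1 (8.40 ± 1.46) and Cat (7.68 ± 3.91). Taken over the 3 libraries, the ranges overlapped between Cyba and Gpx1, Rac2 and Sod2, Sod2 and Cybb, and Txnrd1 and Cat, and not between the other neighbours. Within each kidney library, though, Cyba exceeded Gpx1, at 4277 against 3553, 4113 against 3397 and 3038 against 2406 FPKM. In spleen and marrow Gpx1 came first at 4094 ± 309 FPKM, and Sod2, at 28.0 ± 5.80 FPKM, stood below Cybb at 44.2 ± 8.23 FPKM, though the gap from the lowest Cybb library to the highest Sod2 library was only 34.7 against 34.6 FPKM. There the values of Gpx1 and Cyba, and of Txnrd1 and Cat, overlapped. Gpx1 exceeded Cyba only in spleen and marrow replicate 2 (4422 against 3634 FPKM). Cyba was the higher in replicate 24 (3884 against 3809 FPKM) and in replicate 26 (4200 against 4052 FPKM). Both core subunits act as a pair, yet Cyba exceeded Cybb in every library, by 72.5- to 83.3-fold in kidney and 78.8- to 105-fold in spleen and marrow. The size of this gap depends on the length used: dividing mean CPM by the longest annotated transcript gave 5768 against 135 CPM per kilobase in kidney, and on that scale Gpx1 came first and Sod2 below Cybb in both groups.

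Ratios within a library do not depend on how that library was scaled, and 9 were compared. The ratio of Ncf4 to Ncf1 was 5.81, 6.34 and 5.95 in kidney and 12.4, 12.5 and 11.7 in spleen and marrow. The values within each group lay close together and those of kidney were far lower, a mean log2 difference of -1.01 (log2 ratios of 2.59 ± 0.06 and 3.61 ± 0.05, mean ± SD, n = 3 each). Sod2 relative to Sod1, the cytosolic copper and zinc dismutase, stood at 0.476, 0.513 and 0.557 in kidney and 0.163, 0.122 and 0.126 in spleen and marrow, a log2 difference of 1.92. For these 2 ratios the groups did not overlap, and each reached an exact two-sided permutation p of 0.1, the smallest that 3 against 3 libraries allow, or 0.3 adjusted over the 9 ratios. The groups overlapped in 6 ratios, among them Rac2 to Rac1 (0.414, 0.463 and 0.861 against 0.733, 0.729 and 0.709) and Gpx1 to Gpx4, the peroxidase of membrane lipids (7.79 to 8.76 against 7.74 to 9.86).

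**Figure D4:**
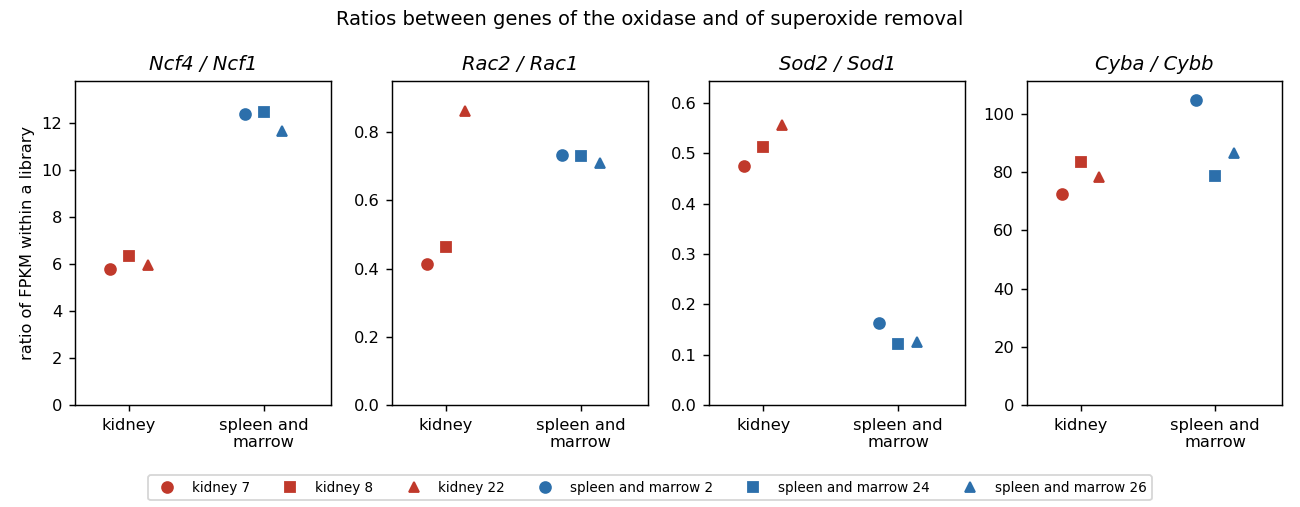
Ratio of FPKM values of 2 genes within a library (y axes from 0), 1 symbol a library, kidney in red and spleen and marrow in blue. The ratio of Ncf4 to Ncf1 lies between 5.81 and 6.34 in kidney and between 11.7 and 12.5 in spleen and marrow, and that of Cyba to Cybb overlaps.

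The genes whose profiles over the 6 libraries came closest to the 2 called members were found by distance between centred log2 CPM values, among 5355 genes of at least moderate level. For Sod2 they were Srgn, a granule proteoglycan gene (distance 0.24), Fth1, the ferritin heavy chain (0.27), and Cisd3, a mitochondrial iron-sulfur protein gene (0.35). Their log2 fold changes of 1.01, 1.07 and 1.22 follow from choosing genes by likeness to Sod2 over the same libraries. For Ncf1 they were Dgcr14 (0.16), Abi1, an actin regulator (0.18), and Zfp106 (0.18), with log2 fold changes of 0.64, 0.65 and 0.53 that likewise follow from that choice.

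Around the oxidase, 13 further genes of the complex and its assembly were tested. Of these 1 fell in edgeR and 12 did not pass, where 5.9% of all tested genes fell. The one that fell was Arhgdib, which encodes the inhibitor that holds Rac proteins in the cytosol of blood cells, from 4530, 4735 and 5025 CPM in spleen and marrow to 2004, 2264 and 2962 CPM in kidney (log2 fold change -0.98 ± 0.16, edgeR adjusted p = 0.00726). It passed in all 17 alternatives. With DESeq2, 1 of the 13 was higher (Prkcb) and 2 were lower (Arhgdib and Rac1), where 11.5% and 8.25% of the genes it tested were. Without kidney replicate 8, edgeR called 2 higher (Prkcb and Vav1), as it did 8.52% of all genes. Of 6 transcription factor genes known at oxidase promoters edgeR called 0. At an unadjusted p under 0.05, 1 was higher and 1 lower, where 15.4% and 12.5% of all tested genes were. DESeq2 called Irf1 higher and Spi1 lower (11.5% and 8.25% of the genes it tested), and limma-voom called Cebpe lower (7.89%). Cebpe, at 0.593, 1.52 and 45.8 CPM, ranked the kidney libraries as the neutrophil and granule precursor sum did. The part of those cells in its values was not tested. Spi1, which encodes PU.1, stood at 542, 587 and 527 CPM in kidney and 622, 684 and 734 CPM in spleen and marrow, and Cebpb at 1895, 1807 and 1660 CPM against 2001, 2130 and 2323 CPM. The 7 genes of the other NADPH oxidases fell below the filter on low counts. Among them Nox4, an oxidase of kidney tubules, had 7, 1 and 15 counts in kidney and 0 in spleen and marrow, at least 9.84-fold higher against a floor of 3 counts over the group, or at least 4.13-fold without kidney replicate 22. DESeq2 called Nox4 higher, as it did 11.5% of the genes it tested. Without the low-count filter edgeR tested 4 genes of this list, Nox4 among them, and called 0. The sum of tubule markers was likewise highest in replicate 22 and lowest in replicate 8, and its part in the Nox4 counts was not tested. Nox1, an oxidase of the gut lining, had 9, 9 and 0 counts in kidney against 34, 9 and 16 in spleen and marrow.

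NADPH is the fuel of the oxidase and of glutathione and thioredoxin recycling. Of 8 tested genes that supply it, 4 fell and 4 did not pass, where 5.9% of all tested genes fell. The median log2 fold change of the 8 was -0.55 against 0.05 over all genes. G6pdx, which starts the pentose phosphate pathway, went from 145, 152 and 149 CPM in spleen and marrow to 59.4, 66.7 and 69.3 CPM in kidney (log2 fold change -1.19 ± 0.14, edgeR adjusted p = 0.00206) and passed in all 17 alternatives. Taldo1, of the same pathway, fell by 0.67 and Idh1, the cytosolic isocitrate dehydrogenase, by 0.83 on the log2 scale, and Me2 completed the 4. Me1, too low for the filter, had 27 counts in kidney and 0 in spleen and marrow, at least 11.5-fold higher against 3 counts over the group. The count depends on single libraries. Without kidney replicate 7 or 8, 2 genes fell (4.48% and 5.38% of all genes), as without spleen and marrow replicate 24 (1.84%). Without spleen and marrow replicate 26, 1 fell (1.59%). Cell cycle markers, 8 genes, summed to 51.0, 167 and 223 CPM in kidney and 1382 to 1570 CPM in spleen and marrow, and their part in these differences was not tested.

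The other antioxidant genes did not move one way. Sod1 fell from 174, 153 and 162 CPM to 94.0, 95.2 and 111 CPM (log2 fold change -0.70 ± 0.14, edgeR adjusted p = 0.0166), a call lost when spleen and marrow replicate 2, 24 or 26 was left out (adjusted p 0.0737, 0.0679 and 0.0922). Sod3, the secreted dismutase, rose from 2 counts in spleen and marrow to 241 in kidney, a ratio of 155 (95% exact interval 42.3 to 1284, counting error only). Its kidney values of 11.7, 5.56 and 28.8 CPM stood in the same order as the tubule marker sums, whose part in them was not tested. Of 18 glutathione genes 3 rose and 4 fell, where 7.83% and 5.9% of all tested genes did. Those that fell were Gstm1 (log2 fold change -1.57), Mgst1 (-1.40) and Mgst3 (-1.18), which join glutathione to other molecules, and Mgst2. Those that rose were Gpx3, Gpx8 and Ggt1, the last at 6.52, 1.39 and 8.52 CPM in kidney and 0.322 to 0.684 CPM in spleen and marrow. Gpx3, a secreted peroxidase made by tubules, reached 445, 204 and 1288 CPM in kidney and 23.1 to 23.8 CPM in spleen and marrow. The other 11 tubule markers had sums of 532, 201 and 1298 CPM there, highest in replicate 22 and lowest in replicate 8 like Gpx3 and Ggt1, and their part in the values of both genes was not tested. Gpx8 had 17, 114 and 20 counts in kidney and 0 in spleen and marrow, at least 64.6-fold higher against 3 counts over the group, or at least 26.4-fold without kidney replicate 8. Endothelial markers were also highest in that library, at a sum of 919 CPM against 28.9 and 20.6 CPM in replicates 7 and 22, and their part was not tested. Without spleen and marrow replicate 2, 24 or 26, Gpx3 rose and Gstm1 and Mgst1 fell, and no other gene of the list passed.

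**Figure D5:**
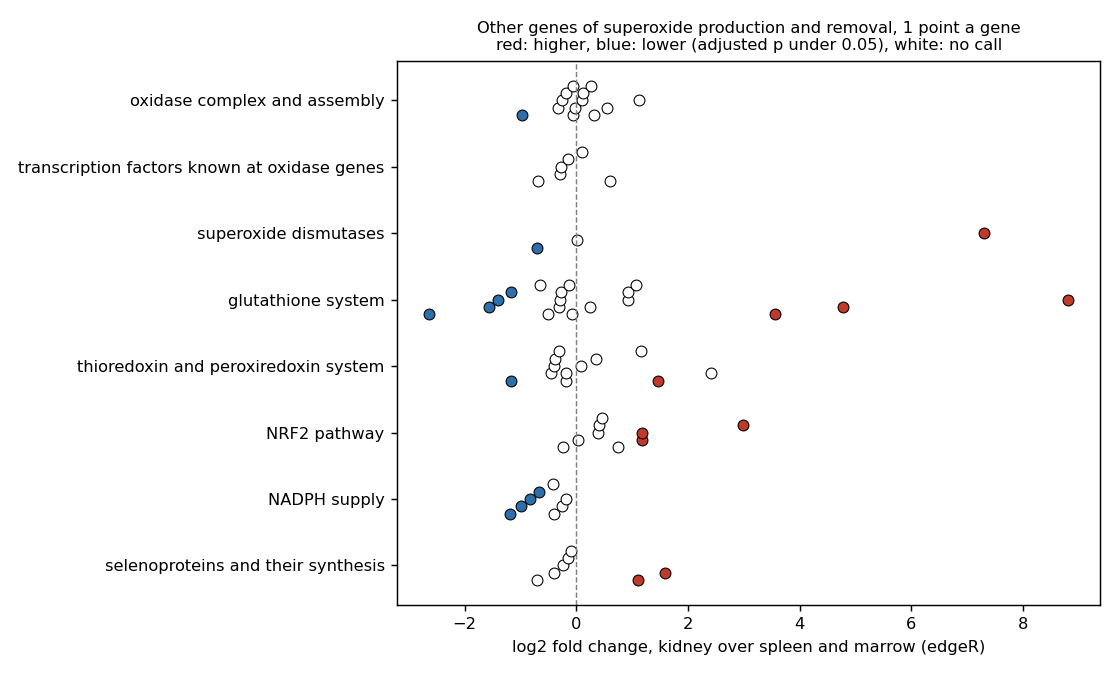
Log2 fold change of kidney over spleen and marrow (x axis, edgeR) for each tested gene of the lists around the oxidase and antioxidant enzymes, 1 point a gene. Red points passed as higher and blue points as lower, and white points did not pass. Of the 8 tested NADPH supply genes 4 are blue, where 5.9% of all tested genes fell.

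Thioredoxin and peroxiredoxin genes mostly did not pass, with 1 of 12 higher and 1 lower (7.83% and 5.9% of all tested genes). Prdx4, the peroxiredoxin of the endoplasmic reticulum, fell by 1.17 on the log2 scale (edgeR adjusted p = 0.00582) and passed in all 17 alternatives. Txnip, which encodes an inhibitor of thioredoxin, rose by 1.46 ± 0.34 (edgeR adjusted p = 0.0268), a call that held without kidney replicate 22 and was lost when any other library was left out (adjusted p up to 0.129). Of 9 genes of the NRF2 pathway, which responds to oxidants, 3 rose and 6 did not pass, where 7.83% of all tested genes rose. Hmox1, which breaks down heme, stood at 390, 216 and 274 CPM against 127, 124 and 138 CPM (log2 fold change 1.18 ± 0.22), and Blvrb, a reductase of the same route, at 129, 168 and 181 CPM against 68.2, 71.8 and 71.4 CPM (1.18 ± 0.17). Nqo1, a quinone reductase, was low in both groups, at 8.53, 4.04 and 12.0 CPM against 0.689, 0.958 and 1.39 CPM. Without spleen and marrow replicate 2, 24 or 26 Blvrb was the NRF2 gene that rose, and Hmox1 and Nqo1 did not pass. Nfe2l2, which encodes NRF2 itself, did not pass (log2 fold change 0.46 ± 0.16, edgeR adjusted p = 0.113). It was chosen after its values were seen.

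Selenium is built into Gpx1 and Txnrd1. Of 7 tested genes of other selenoproteins and their synthesis 2 rose, where 7.83% of all tested genes did. Selenop (listed as Sepp1), which carries selenium between organs, stood at 401, 432 and 347 CPM in kidney and 113, 137 and 144 CPM in spleen and marrow (log2 fold change 1.59 ± 0.16, edgeR adjusted p = 0.00109) and passed in all 17 alternatives. Selenow (listed as Sepw1), a small redox protein, rose by 1.10 ± 0.20, a call lost without spleen and marrow replicate 24 or 26 (adjusted p 0.0742 and 0.0764).

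The shallowest library, kidney replicate 22, held 3492391 counts, and the deepest, spleen and marrow replicate 26, held 9727489. All 10 monocyte and macrophage markers were detected in every library, summing to 34544 to 36766 CPM in kidney and 44430 to 61477 CPM in spleen and marrow. Most of that sum was Lyz2, the lysozyme gene, at 29441 to 32061 CPM in kidney and 36591 to 53871 CPM in spleen and marrow. Of the 10, Csf1r, Itgam, Fcgr1, Cx3cr1, Emr1 and C1qa passed edgeR as higher in kidney (C1qa, of complement, at 700 to 901 CPM against 2.33 to 3.22 CPM) and Lyz2 and Ly6c2 as lower. The part of this difference in the values of the oxidase and antioxidant genes was not tested. Endothelial markers, 9 genes, summed to 7.52 to 11.8 CPM in spleen and marrow, below each kidney library. Lymphocyte markers summed to 30.3 to 49.0 CPM and fibroblast and mural markers to 0.115 to 9.48 CPM over all libraries.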

How the data were processed

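RNA was sequenced from 3 kidney and 3 spleen and marrow samples, grouped by their titles, with full-length cDNA made from 2 ng of RNA and sheared to about 150 bp, per the labels' protocols. The authors deposited raw counts per gene symbol (24047 rows) and FPKM values (24043 rows), per the file headers. The submitters' processing notes name bcl2fastq 2.18, STAR 2.5, Cufflinks 2.2.1 and mm9. What counted the reads, and against which annotation, is not given in the sources used here. The kit does not mark strand, so overlapping antisense reads are counted together. Mir6236, a microRNA row, held 6.96% to 17.8% of all FPKM, so counts gave the tests and FPKM only levels per length and ratios.

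All genes were fitted with edgeR 4.0.16 (R 4.3.3, filterByExpr, TMM scaling, quasi-likelihood F test, two-sided, Benjamini-Hochberg over 10626 genes, threshold 0.05), after testing on simulated data. CPM uses TMM-adjusted library sizes, and an SE is the log2 fold change over the square root of F. Intervals of edgeR fold changes are built from that SE and so include the spread among libraries. The exact interval of the Sod3 count ratio and the floor of 3 counts cover counting error only. Alternatives used limma 3.58.1, DESeq2 1.42.0, other scaling and filters, and left out each library. The members, gene lists and tests were chosen with earlier results of these data known. The 9 members and Rac1 are named, with up to 3 called genes per direction by smallest p from each list, or the 2 most abundant of a list with no call. For each called member the 3 nearest genes are named, among those whose mean log2 CPM was 4 or more. Any other gene named was chosen after its values were seen. A ratio among the 9 computed, and a gene of the oxidase list, are not reported here. Figures were drawn with matplotlib 3.10.9.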

Additional observations from a re-analysis of the deposited data

How the results depend on the processing

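No paired analysis was possible because the groups share no replicate number. Of the 2 members called higher, 1 remained without the low-count filter, with limma-trend on FPKM (pseudocount 1, deposited or rescaled without Mir6236, or pseudocount 0.1), with spleen and marrow replicates 24 and 26 summed, or at adjusted p under 0.01, each time Sod2. In these settings 2.65% to 6.6% of all genes were higher, and 322 of 10626 at adjusted p under 0.01. Leaving out 1 library gave 0 to 2 members higher (2.31% to 14.3% of all genes) and 0 to 2 lower (1.59% to 11.1%). Without spleen and marrow replicate 26, 0 were higher (2.31% of all genes). Without kidney replicate 22, 2 were lower (Ncf4 and Rac2), as were 11.1% of all genes. Members called lower numbered 2 with DESeq2 (8.25% of all genes), 3 with limma-voom (7.89%), 2 with sample weights (9.86%), and 1 (Rac2) with limma-trend at pseudocount 1 (5.92%) or 0.1 (5.51%). Over all genes, 832 higher and 627 lower became 1438 and 1028 with DESeq2, 1352 and 1048 with sample weights, 299 and 201 with the 2 libraries summed, 322 and 189 at adjusted p under 0.01, and 468 or 543 higher with limma-trend at pseudocount 1 or 0.1. Leaving out 1 library gave 260 to 1569 higher and 179 to 1215 lower, the largest without kidney replicate 22 and the smallest without spleen and marrow replicate 26. The cause was not tested. The share of calls higher in kidney was 57.0%, against 46.8% with limma-voom and 42.7% with limma-trend at pseudocount 1, where the median of all genes shifted by -0.11 (-0.19 at pseudocount 0.1). Cyba changed sign, staying near 0, at -0.0011 with sample weights, -0.050 with limma-trend at each pseudocount, and ran from -0.0054 (spleen and marrow replicate 2 left out) to 0.086 over the fits without 1 library. The Gpx1 to Gpx4 ratio difference of -0.013 ran from -0.076 to 0.099 over the fits without 1 library, at 0.038 with kidney replicate 22 left out. Low counts limit Nqo1, Gpx8, Sod3 and Ggt1. Ranking the members per length with annotated transcript lengths was added after seeing the data.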
